A study of Homo sapiens with 3 samples.

Results

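JUN, JUNB, JUND, FOS, FOSL1, FOSL2, BATF, BATF3, ATF3 and MAFF encode AP-1 proteins and close relatives of the basic leucine zipper (bZIP) family. All probes annotated to these 10 genes were taken, which gave 14 probes of the 24303 that had a gene name, for 10 of 19367 genes. RNA came from L428tetPU.1 cells. Their parent, L428, is an established line from a classical Hodgkin lymphoma, and they carry a PU.1 gene induced when tetracycline is withdrawn. The day 0 cells stood in medium with 500 ng/ml of tetracycline, and the day 1 and day 3 cells were harvested 1 and 3 days after its removal. Each day had 1 bead array, so no value has a replicate error and no test between days was possible. All 3 arrays are of cells with the inducible gene, so loss of tetracycline and induction of PU.1 cannot be told apart. The arrays themselves do not show the induction, since the 1 probe for SPI1, the gene of PU.1, read 40.8, 35.3 and 38.9 and was not above background on any day. Whether that probe can read the introduced gene was not tested. The design text speaks of 4 independent experiments per RNA sample. The sources used here do not say whether these were pooled, or whether the line is 1 clone.

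AP-1 is not a single protein but a set of dimers. JUN proteins pair with each other or, through the leucine zipper, with FOS, BATF or ATF proteins, and the basic regions of the pair grip a short palindromic DNA site. BATF proteins lack the activation domain of FOS and join IRF4 or IRF8 at composite sites in lymphocytes, ATF3 is a stress-induced factor that often represses, and MAFF is a small MAF protein without an activation domain. AP-1 activity is a known feature of Hodgkin lymphoma cells, where JUN, JUNB and BATF3 proteins are described as abundant.

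Of the 10 genes, MAFF and ATF3 were the members that rose. MAFF went from background at day 0 to a clear signal at day 1 and day 3, at least 3.51-fold and 3.49-fold higher. With the processing these bounds ranged from 2.51-fold to 4.51-fold, and the rise rests on 1 probe, the other MAFF probes being within background. ATF3 rose 2.18-fold by day 3, but its change was 0.94 log2 in the authors' values and with 75th percentile scaling, where it missed the 2-fold rule. BATF differed by 0.07 log2 or less between any pair of arrays, and no member fell.

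The sequences before the transcription starts of MAFF, ATF3, JUN and JUND are shown because the first pair rose and because these are the 4 members with a match, in the 250 bases before a start, to the 5 motifs searched. They were chosen after the matches were seen. The sequences are from RefSeq, build GRCh38.p14, read 5′ to 3′ on the gene's strand and ending 1 base before the start. Capitals mark the matches.
MAFF, chr22:38201744-38201993, plus strand: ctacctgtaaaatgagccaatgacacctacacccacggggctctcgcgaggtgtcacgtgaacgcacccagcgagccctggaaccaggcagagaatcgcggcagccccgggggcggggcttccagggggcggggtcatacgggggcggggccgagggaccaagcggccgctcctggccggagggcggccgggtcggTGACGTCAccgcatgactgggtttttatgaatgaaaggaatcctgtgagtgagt
ATF3, chr1:212565157-212565406, plus strand: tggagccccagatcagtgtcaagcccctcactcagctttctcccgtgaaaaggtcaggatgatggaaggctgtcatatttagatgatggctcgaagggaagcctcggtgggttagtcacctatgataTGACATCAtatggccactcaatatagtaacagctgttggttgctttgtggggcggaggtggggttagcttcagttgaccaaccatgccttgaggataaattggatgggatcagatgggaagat
JUN, chr1:58784048-58784297, minus strand: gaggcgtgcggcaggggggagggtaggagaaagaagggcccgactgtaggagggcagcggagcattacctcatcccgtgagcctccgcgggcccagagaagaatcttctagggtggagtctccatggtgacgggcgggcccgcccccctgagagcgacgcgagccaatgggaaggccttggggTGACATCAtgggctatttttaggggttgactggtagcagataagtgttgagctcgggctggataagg
JUND, chr19:18281623-18281872, minus strand: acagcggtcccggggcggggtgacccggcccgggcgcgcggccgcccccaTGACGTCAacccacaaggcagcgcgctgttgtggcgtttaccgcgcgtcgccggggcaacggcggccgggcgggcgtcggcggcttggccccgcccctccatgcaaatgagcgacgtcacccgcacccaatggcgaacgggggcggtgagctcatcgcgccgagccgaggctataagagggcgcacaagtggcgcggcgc

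Promoter windows from 250 bases before to 50 after the start were found for 8 of the 10 members, with 10 windows in all since ATF3 and MAFF have a pair each. Both strands were searched for TGACTCA, the classic AP-1 site, for the cyclic AMP response element TGACGTCA, for TGACATCA, the form of it known from the JUN promoter, for GAGGAAGT, a site of the kind PU.1 and other ETS factors bind, and for the CArG box, which serum response factor binds. No motif of this set can lie inside another. TGACGTCA was found in 2 of the 10 windows, 54 bases before the start in MAFF and 200 before it in JUND, and in 1.85% of all 35116 windows. TGACATCA was also found in 2, 123 bases before the start of the first ATF3 window and 67 before that of JUN, and in 2.61% of all windows. TGACTCA was found in the FOSL2 window alone, 4 bases after the start, and in 4.95% of all windows. GAGGAAGT and the CArG box were found in 0 of the 10, and in 2.59% and 1.29% of all. These matches describe the letters of the windows and not binding, and sites farther from a start were not searched.

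A probe was taken as above background when its detection p-value was under 0.01. This set the lowest intensity above background to 70.4, 64.5 and 67.0 on the arrays of day 0, 1 and 3. Of the members, 5 had a probe above background on all 3 arrays (JUND, FOSL2, BATF, BATF3 and ATF3), 3 on 1 or 2 arrays (JUN, FOS and MAFF) and 2 on none (JUNB and FOSL1). A gene was called higher or lower when its background-corrected, quantile-normalized signal changed by at least 2-fold, that is 1 log2. Where a gene cleared background on just 1 of the 2 arrays, a bound was taken in addition. It compares the brighter value with the dimmer array's lowest signal past the detection limit, or with the dim probe's own if higher, and it too had to reach 2-fold. The words "rose" and "fell" are kept for genes that met this rule. The error between probes was 0.37 log2 for day 1 against day 0, 0.29 for day 3 against day 0 and 0.31 for day 3 against day 1 (SD, 489 genes with at least 2 probes above background on all arrays). Among the dimmer 244 of these genes it was 0.42, 0.33 and 0.33, and among the brighter 245 it was 0.31, 0.24 and 0.28. This error is 1 SD and does not cover differences between cultures, so a change beyond it may still be no change between days. The bounds take the brighter value as read, so the words "at least" make no allowance for the error between probes. Signals of different probes were not compared with each other, since probes bind with different strength.

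**Figure D1:**
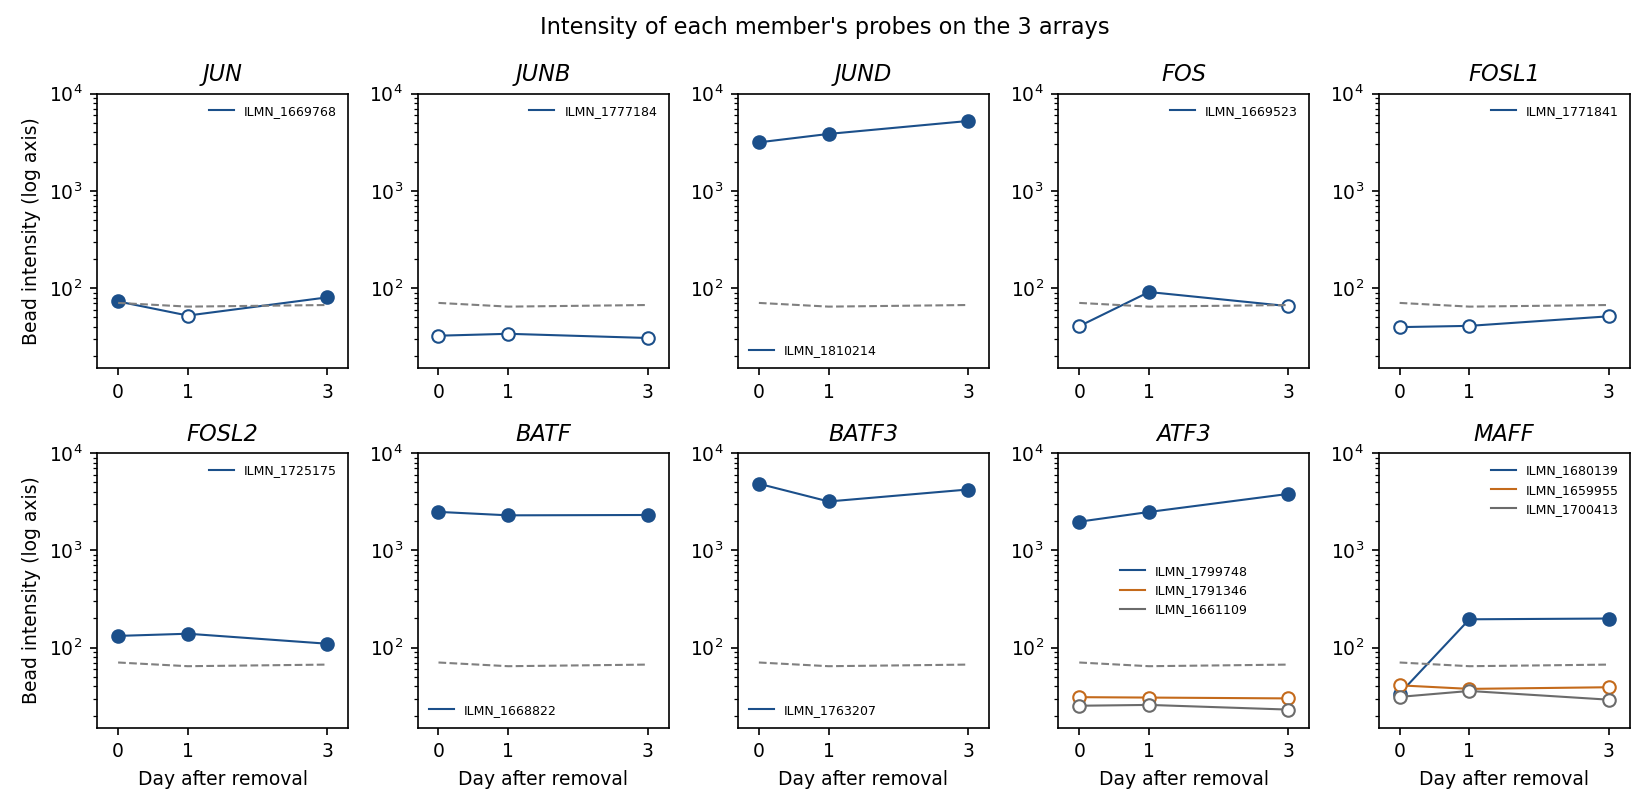
Bead intensity (log axis) of the 14 probes of the 10 members at day 0, 1 and 3 after tetracycline removal. Filled points are above background, open points are not, and the dashed line is the lowest intensity above background on each array. MAFF crosses that line at day 1, ATF3 and JUND are higher on each later array, and the JUNB and FOSL1 probes lie under the line throughout.

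The JUN proteins are common partners in AP-1 dimers. The 1 probe for JUND, the JUN member that is widely expressed in resting cells, read 3146 at day 0, 3842 at day 1 and 5219 at day 3. It was highest on the last array. The normalized changes against day 0 were 0.47 log2 at day 1 and 0.88 at day 3, or 1.39-fold and 1.84-fold. Both were larger than the error between probes but short of the 2-fold rule. In the authors' values and with 75th percentile scaling the day 1 change was 0.33 and 0.32, within that error of 0.37. The probe for JUN itself, the founding member and a target of the JNK kinases, stood at 72.9, 52.2 and 80.3. It lay just above the detection limit at day 0 and day 3 and under it at day 1. Its change at day 1 was -0.60, with a bound of 1.14-fold lower, or -0.19 log2, which is within the error between probes. At day 3 its change was 0.17. The day 3 value was at least 1.28-fold above that of day 1, a bound of 0.36 log2 beside an error between probes of 0.31. For the dimmer genes that error was 0.33. None of these JUN changes met the rule. The probe for JUNB, whose protein is described as abundant in Hodgkin lymphoma cells, read 32.4, 33.9 and 30.7, with detection p-values of 0.419, 0.324 and 0.489. It was not above background on any array, so no fold is given, and whether this probe reads the JUNB transcript well was not tested.

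FOS proteins do not pair with each other and need a JUN protein to bind DNA. The probe for FOS, the prototype of the rapidly induced early genes, had an intensity of 40.6, 91.1 and 65.2. Only the day 1 array was above background, with a detection p-value of 0.00291, and the day 3 array missed the limit at 0.0124. FOS was at least 1.42-fold higher at day 1 than at day 0, a bound under the rule, and at least 1.54-fold higher at day 1 than at day 3. The measured difference between day 1 and day 0 was 1.48 log2, and with a detection p-value under 0.05 as the limit it met the rule. FOSL1, a FOS relative without the C-terminal activation domain of FOS, read 39.7, 40.9 and 51.3 and was not above background on any array. FOSL2, its closest relative, read 132, 139 and 110 and was above background on all of them. Its changes were 0.17 at day 1 and -0.28 at day 3, both within the error between probes. From day 1 to day 3 FOSL2 changed by -0.45, beyond the error of 0.31 and short of the rule.

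The BATF proteins are lymphoid partners of JUN. The BATF probe gave 2487, 2292 and 2310, with changes of 0.07 log2 at both later days, and of -0.08 and -0.11 in the authors' values. The 3 arrays did not differ beyond the error between probes. BATF3, which is known from dendritic cells and from Hodgkin lymphoma, read 4839, 3182 and 4224. It was lowest at day 1, with a change of -0.45 that exceeded the error between probes and did not meet the rule, and at day 3 its change was -0.07. IRF4, the partner of BATF at composite sites, changed by 0.00 and -0.15, and IRF8, its relative that also pairs with PU.1, by 0.64 and 0.77.

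ATF3 and MAFF each have 3 probes, of which 1 was above background on any array. The ATF3 probe ILMN_1799748 read 1972, 2482 and 3807, in the order of the days. The changes against day 0 were 0.52 log2 at day 1 and 1.12 at day 3, so that ATF3 rose by day 3 and not by day 1, and the change from day 1 to day 3 was 0.60. The scalings that ended the day 3 call place the median of all genes above background on both arrays at -0.18 and -0.20, against -0.08 here. Less that median the ATF3 change was 1.12, 1.14 and 1.20. This shift is the same for every gene, so it does not set ATF3 apart. Calls of genes outside the members that ended in these scalings were not adjusted in this way. The share of all genes past the rule after it was not counted. The other ATF3 probes read between 23.1 and 31.0 on all arrays, none of them above background.

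The MAFF probe ILMN_1680139 read 33.7 at day 0, 196 at day 1 and 199 at day 3. Day 0 lay within background, with a detection p-value of 0.355, and the 2 later arrays were far from it and close to each other. The bounds were at least 3.51-fold higher at day 1 and at least 3.49-fold at day 3, and the change from day 1 to day 3 was -0.01 log2. The bound stayed between 2.51-fold and 4.51-fold in 6 ways of processing the signals, the reported one included. The other MAFF probes read between 29.2 and 41.0 and were not above background on any array, so the rise rests on 1 probe.

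**Figure D2:**
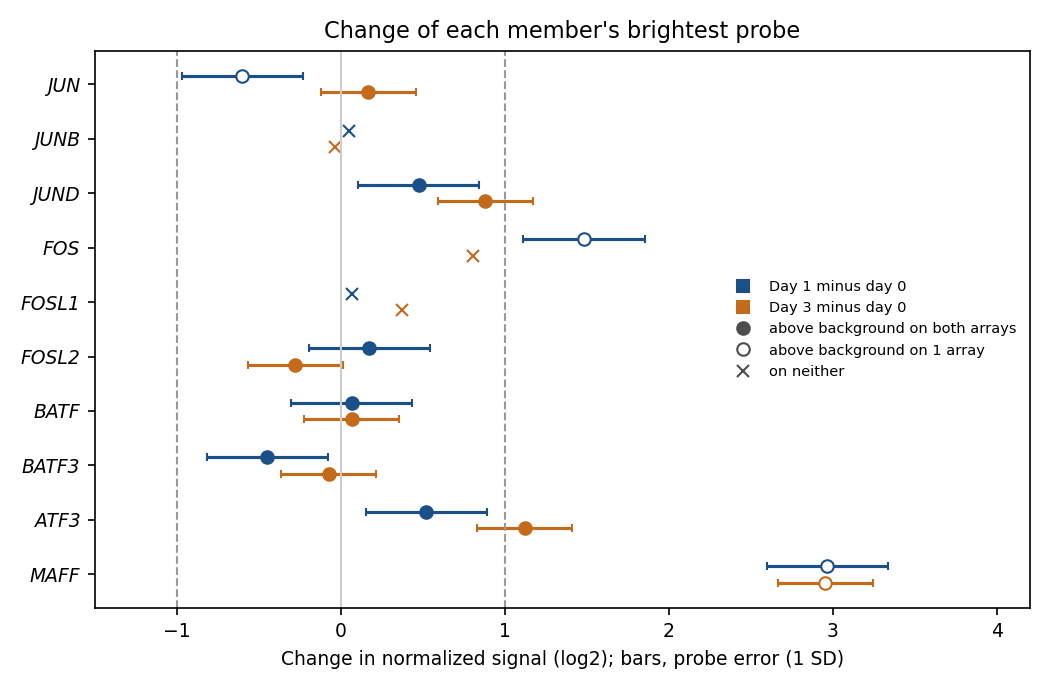
Change in normalized log2 signal of the brightest probe of each member at day 1 and day 3 against day 0, with bars of 1 SD of the error between probes and dashed lines at 2-fold. MAFF lies farthest to the right at both days, at 2.96 and 2.95, but its day 0 value is within background. ATF3 passes the line at day 3, with 1.12, while FOS passes it at day 1 by its measured value and not by its bound.

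At day 1 therefore 1 of 8 measured members was higher and 0 lower, while 9.19% of all 9311 measured genes were higher and 7.98% lower (17.2% either way). That is near the background and is no result about the members as a set. At day 3 2 of 7 measured members were higher and 0 lower, against 4.95% and 2.13% of all 9190 measured genes (7.08% either way). The members were chosen with earlier results of these data known, so nothing is read from this difference. In the authors' values and with 75th percentile scaling, 1 member was higher at day 3, MAFF. Over all genes 315 and 374 were higher in these settings, against 455 as reported. Among genes above background on all 3 arrays the 1 member higher at day 3 was ATF3, since MAFF is then not measured. MAFF counts as measured in both comparisons only through the later array, and FOS likewise at day 1. From day 1 to day 3, 0 of 8 were higher and 0 lower, against 3.54% and 3.92% of 9318 (7.46% either way). Over members above background on both arrays compared, the median change was 0.17 log2 at day 1 (5 members) and 0.12 at day 3 (6 members), beside -0.09 and -0.08 for all such genes. With no detection filter the members' medians were 0.12 and 0.27. Nothing is read from these medians.

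**Figure D3:**
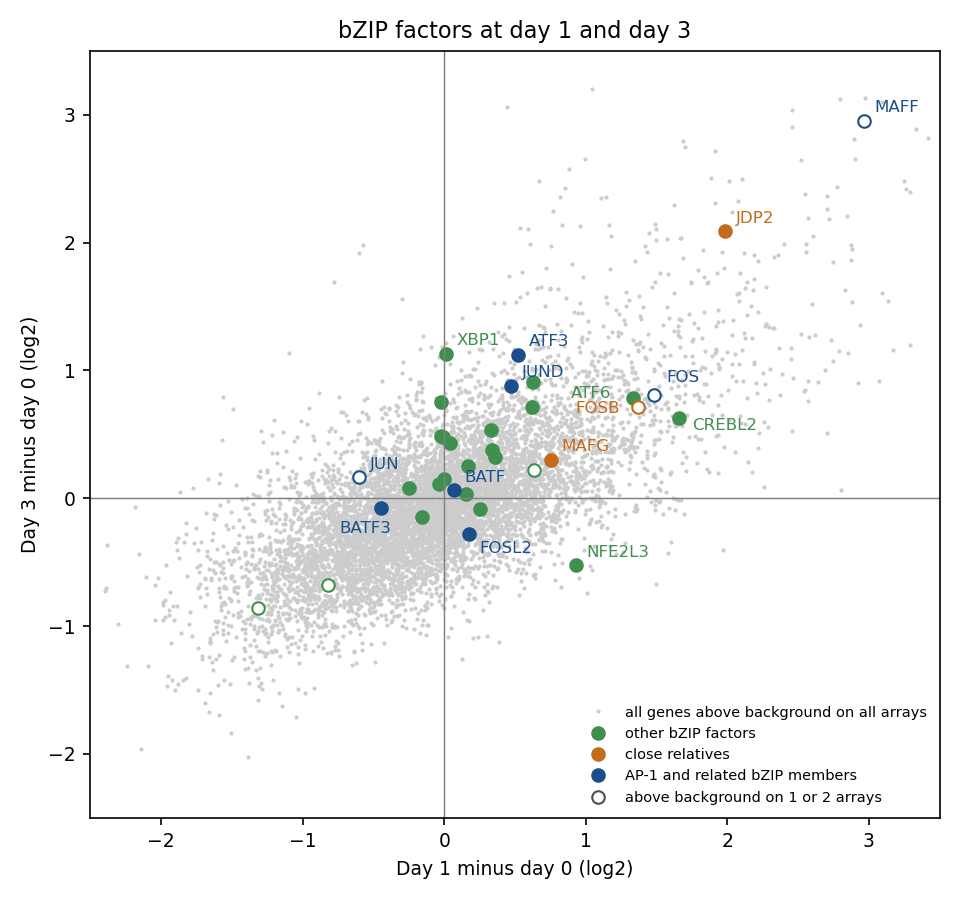
Change at day 3 against change at day 1, both against day 0 in log2, for members, close relatives and other bZIP factors over all genes above background on all arrays (grey; a few lie outside the axes). Open points were above background on 1 or 2 arrays only, and both axes share the day 0 array. MAFF and JDP2 lie in the upper right, XBP1 and ATF3 are higher on the vertical axis than on the horizontal, and NFE2L3 is the reverse.

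Close relatives outside the 10, such as FOSB, JDP2 and MAFG, were taken as a list of 9 genes. JDP2, a repressor of AP-1 that resembles ATF3, was the 1 of them that rose. Its probe, above background on all arrays, read 84.9, then 273 and 297. The changes were 1.98 and 2.09 log2, or 3.96-fold and 4.26-fold, and JDP2 met the rule at both days in all 10 alternatives of the processing. In the order of protein-coding genes on chromosome 14 (GRCh38.p14), JDP2 is the single gene between FOS and BATF, neither of which met the rule. BATF3 and ATF3 are also near neighbours, on chromosome 1, with GARIN4 alone between them. BATF3 was at its lowest at day 1, when ATF3 lay between its other values.

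FOSB, the FOS relative most like it in early induction, read 40.8, 85.6 and 62.5, a course close to that of FOS. It too was above background at day 1 alone and was at least 1.31-fold higher there than at day 0. That bound, 0.39 log2, is close to the error between probes of 0.37 and under that of the dimmer genes, 0.42. MAFG, a small MAF like MAFF, read 155, 229 and 179, with changes of 0.75 and 0.30. Of the 9 relatives 7 had a named probe, and 3 were measured at day 1 and 2 at day 3, with JDP2 the call in each.

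Among 34 other bZIP factors 33 had a named probe. As for all lists below, the shares of all measured genes to set beside the counts are 9.19% higher and 7.98% lower at day 1, 4.95% and 2.13% at day 3, and 3.54% and 3.92% from day 1 to day 3. At day 1, 2 of 23 measured rose, near that share, and 0 fell, and the median change was 0.16 log2. CREBL2, a small CREB-like protein, read 127, 338 and 181 and rose by 1.66 at day 1. ATF6, a membrane-bound factor of the unfolded protein response, read 384, 835 and 580 and rose by 1.33. Both were back under the rule at day 3, with 0.63 and 0.78. At day 3 the median was 0.35, and of 22 measured 1 rose and 0 fell. The gene was XBP1, which acts beside ATF6 in the unfolded protein response and in plasma cells, at 1495, 1333 and 2852, a rise of 1.13 that ended at 0.92 in the authors' values and at 0.93 with 75th percentile scaling. From day 1 to day 3 XBP1 rose by 1.11, NFE2L3, which pairs with small MAF proteins, fell by 1.45 and CREBL2 fell by 1.03. The CREBL2 call ended in the authors' values, at -0.95, and in 2 other alternatives. BACH2, a B cell repressor that pairs with small MAF proteins, changed by 0.63 and 0.91 without meeting the rule. CREM read 111, 52.9 and 69.1 and was at least 1.91-fold lower at day 1, also short of it.

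The MAP kinase cascades and the serum response factor with its partners switch on FOS and JUN and act on their proteins. Of 37 such genes 30 had a named probe and 25 were measured. At day 1, 2 rose and 1 fell, with a median change of 0.18 log2. HRAS, a small GTPase at the head of the ERK cascade, read 379, 150 and 184 and fell by 1.29. MAPK11, a p38 kinase, rose by 1.05 and ELK1, a partner of serum response factor, by 1.09. Both calls ended in the authors' values, at 0.89 and 0.91, and in 2 and 3 other alternatives. At day 3 MAP3K8, which activates the ERK cascade, rose by 1.00, and 0 fell. HRAS, at -0.996, lay just inside the line, and 1 gene was lower in the authors' values, with 75th percentile scaling and with an offset of 1. The MAP3K8 value sat on the line and was 0.81 in the authors' values, 1 of 4 alternatives in which the call ended. SRF itself changed by 0.53 and 0.01, and the JNK gene MAPK9 by -0.52 and -0.02.

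Of 29 other early-response genes, which like FOS answer stimuli within minutes to hours, 26 had a named probe. At day 1, 6 of 18 measured rose and 0 fell, with a median of 0.76 log2, and at day 3, 6 of 19 rose and 0 fell, with a median of 0.64. Of all measured genes 9.19% and 4.95% were higher. The list was chosen with earlier results of these data known, so nothing is read from the difference. In the authors' values 6 were higher at day 1 and 4 at day 3. With no detection filter the day 1 median was 0.37. DUSP5, a phosphatase that inactivates ERK in the nucleus, read 189, 3319 and 1958, a rise of 4.41 and then 3.62. CSRNP1, a nuclear protein, rose by 2.55 and 1.93, EGR1, a zinc finger factor, by 1.45 and 2.07, and ZFP36L1, which marks short-lived mRNAs for decay, by 1.66 and 1.18. IER3, an early gene tied to survival, rose by 1.18 at day 3 alone, and in the authors' values it was at 0.98. PPP1R15A, which takes part in the stress response, rose by 1.47 at day 1 alone, and ZFP36, which also marks mRNAs for decay, by 1.92 and 1.15, the second call ending in 3 alternatives. From day 1 to day 3, 1 of 19 rose, DUSP1 by 1.18.

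Of 19 genes for partners and turnover of AP-1 proteins, 16 had a named probe and 13 were measured at day 1, when 2 rose and 0 fell, with a median of 0.00 log2. COP1, a ubiquitin ligase that acts on JUN, read 1231, 3028 and 1242. It rose by 1.48 at day 1 and fell by 1.29 from day 1 to day 3. TRIB1, an adaptor of COP1, read 1016, 1917 and 1678 and rose by 1.13 at day 1, a call that ended at 0.96 in the authors' values. At day 3 0 of 12 met the rule against day 0.

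Genes known as AP-1 targets were also examined. All 21 had a named probe, and 12 were measured in each comparison with day 0, though not the same 12. At day 1, 2 rose and 1 fell, with a median of 0.28 log2, and at day 3, 2 rose and 0 fell, with a median of 0.63. PLAU, the urokinase gene, read 1015, 2572 and 2014 and rose by 1.55 and 1.19, the second call ending at 0.98 in the authors' values. IL6, an inflammatory cytokine gene, read 168, 180 and 407 and rose by 1.49 at day 3. CCND2, which encodes cyclin D2, rose by 1.16 at day 1, while CCND1, for cyclin D1, fell by 1.43. TNFRSF8 (CD30), which JUNB is known to drive in lymphoma cells, changed by 0.19 and -0.55, LGALS1, for galectin-1, by 0.34 and 0.66, and MET by -0.60 at both days. CD44, a receptor for hyaluronan, changed by 1.00 and 0.95 on its brightest probe, just under the rule, and by 1.88 and 2.07 on another, so its probes disagreed.

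ATF3 was the 1 member that both met the rule and was above background on all arrays. Among 8089 other genes above background on all arrays, those whose changes at day 1 and day 3 lay closest to its own were CTSZ, SLC26A5 and EIF2AK2. The distances were 0.053, 0.079 and 0.082 log2 in the plane of these 2 changes. CTSZ changed by 0.49 and 1.17, SLC26A5 by 0.46 and 1.07 and EIF2AK2 by 0.49 and 1.05. Their day 3 calls ended in 3, 4 and 2 alternatives. With 3 arrays this likeness rests on 2 numbers a gene.

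**Figure D4:**
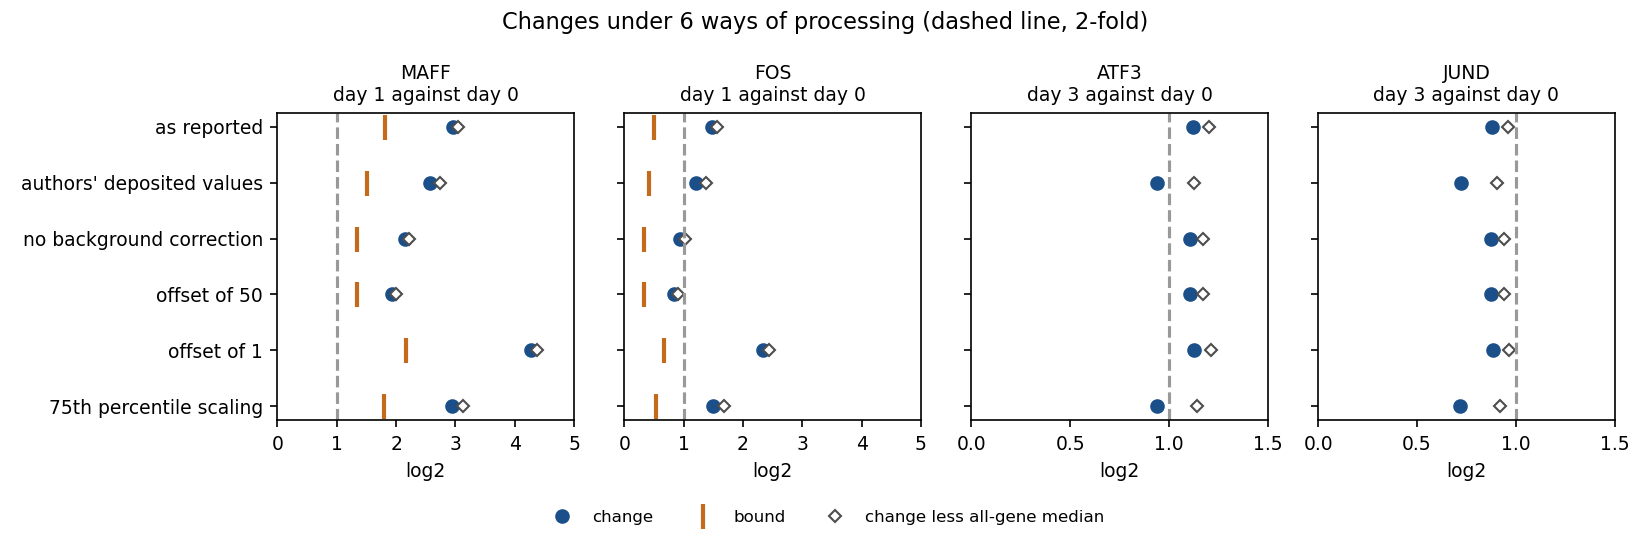
Change of MAFF and FOS at day 1 and of ATF3 and JUND at day 3, all against day 0 in log2, under 6 ways of processing, with the bound where 1 array was within background and the change less the median of all genes. The MAFF bound stays right of the 2-fold line and the FOS bound left of it in all 6, and ATF3 falls left of it in the authors' values and with 75th percentile scaling unless the median of all genes is taken off.

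Across the arrays 10838 to 11317 of 48701 probes were above background, or 22.3% to 23.2%. Of 6 genes that mark Reed-Sternberg cells, the tumour cells of Hodgkin lymphoma, all were above background on every array. CCL22, CCL17 and TRAF1 rose by day 3, TRAF1 by 1.08, a call that ended at 0.86 in the authors' values. Of 5 B cell markers with a named probe 0 were above background, and likewise 0 of 6 markers of T and NK cells and 0 of 6 of monocytes and macrophages. Of 6 epithelial and stromal markers COL1A1 was above background, at day 1 alone, with an intensity of 67.0. The housekeeping genes GAPDH and ACTB changed by -0.10 and -0.21 at day 1 and by -0.07 and 0.00 at day 3.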

How the data were processed

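Illumina bead arrays, 1 for each of day 0, day 1 and day 3, measured the RNA of the cells. BeadStudio 3.3.7 is named in the submitters' processing notes, without its role. The authors deposited 1 non-normalized intensity and 1 detection p-value per probe and array, per the file headers, and a table of log2 values whose making the sources do not describe. Set against the intensities, each deposited log2 value was, within 1e-05, the log2 intensity scaled to the array's 75th percentile and then centred on the probe's median. That table was used as an alternative.

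Background was inferred from the detection p-values and removed with limma 3.58.1 (normexp, run in R 4.3.3). The corrected intensities were given an offset of 16, quantile normalized and put on the log2 scale. The offset shrinks the changes of dim probes, and quantile normalization removes a shift shared by most genes. Other steps used Python 3.11.15, pandas 2.3.3, numpy 2.4.6 and matplotlib 3.10.9, and the normalization was tested on simulated data. There few probes changed, as many up as down, all of them above background at day 0. That test does not cover genes that start within background, as MAFF did, or lopsided changes. Probes were named from the platform's annotation, updated through RefSeq genes of GRCh38.p14. Of 48701 probes 24303 had 1 gene name and 24398 had none. The brightest probe, by mean normalized signal, stood for a gene.

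With 1 array per day the comparisons rest on the size rule given in the Results, without any test between days. The precision is limited by the number of arrays. The named genes were the 10 members, from each of 6 lists all genes that met the rule if 5 or fewer did and otherwise the 5 with the widest change at day 3, the 3 genes nearest to a member, GAPDH and ACTB. Others named were chosen after their values were seen. The members and lists were chosen with earlier results of these data known. In all, 10 alternatives of the processing were tried.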

Additional observations from a re-analysis of the deposited data

How the results depend on the processing

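No paired analysis was possible because each day has 1 array. For the members' counts and medians, 82 of 90 values under the 10 alternatives stayed within 1.5 times the reported count or within the error between probes. Many had little room to move, since the reported counts of lower members were 0 and the reported medians were smaller than that error. The 82 is therefore no measure of stability. The number of members higher at day 1 was 1 as reported, 2 when the detection limit was 0.05 and 2 without one, FOS joining MAFF in both. It was 0 when only genes above background on all 3 arrays were kept, since MAFF is then not measured. The number higher at day 3 against day 0 was 2 as reported. It was 1, MAFF, in the authors' values and with 75th percentile scaling. It was 1, ATF3, with genes above background on all 3 arrays, and 3 with a 1.5-fold rule, where JUND joined. With that rule 1 member, ATF3, was higher from day 1 to day 3 and 1, FOS, was lower. Of the members' single changes 209 of 222 values moved by less than the error between probes and 0 reversed a call. The other 13 are those of MAFF, FOS and JUN, probes near background, under another offset, without background correction or in the authors' values. The 209 is no measure of stability either. Another detection limit or none, the limit to genes above background on all 3 arrays, and the 1.5-fold rule leave a change as it was. So does the mean of the probes above background, since no member has more than 1. The MAFF change at day 1 ranged from 1.93 with an offset of 50 to 4.28 with an offset of 1. For the lists 476 of 540 values were unmoved by the same measure, and 26 of the 64 others came from the 1.5-fold rule. No stability is read from that count. Over all genes, day 3 gave 455 higher and 196 lower as reported, 315 and 259 in the authors' values and 374 and 363 with 75th percentile scaling, so that the share of higher calls was 69.9%, 54.9% and 50.7%. At day 1 those shares were 53.5%, 42.9% and 42.0%. Signal over background limits JUN, JUNB, FOS, FOSL1 and the day 0 value of MAFF.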
